A study of Mus musculus with 16 samples.

Results

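Dpp10 and 8 genes of the Kv4 potassium channel complex were examined in precancerous cells of small cell lung cancer (preSC), a mouse lung neuroendocrine cell positive for Chga, by messenger RNA sequencing. The 9 genes, out of 17655 listed in every sample, were taken by symbol: Dpp10 and Dpp6, the pore genes Kcnd1, Kcnd2 and Kcnd3, and Kcnip1, Kcnip2, Kcnip3 and Kcnip4. Dpp10 was chosen because it was among the large differences between the groups, so its values are given as a description with no test, while the other 8 genes were taken for their known place in the channel complex. The cells of both groups were Rb1 null, Trp53 null and Rbl2 heterozygous null, per the labels, and both received doxycycline at 1 µg/mL for 48 h before harvest. The control group (empty, 8 samples) carried an empty lentivirus and the other group (Wnt5a, 8 samples) carried lentiviral Wnt5a. The labels name no separate cultures or clones, so p-values measure only the spread between these samples, which may be technical.

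Kv4 channels carry a fast, subthreshold potassium current called the A-type current, which delays firing in excitable cells and shapes the early part of the heart's action potential. The pore is a tetramer of Kcnd gene products. Cytoplasmic calcium-binding proteins, the KChIPs encoded by Kcnip genes, bring the channel to the surface and alter its inactivation. Single-pass membrane proteins encoded by Dpp6 and Dpp10, relatives of dipeptidyl peptidase 4 that have lost the enzyme activity, speed its gating. Pulmonary neuroendocrine cells, the airway sensors from which small cell lung cancer can arise, are excitable and release amines and peptides. Transcript levels are not a measure of channel protein or of current.

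The values are normalised read counts, that is reads of a gene divided by a single factor per sample, as the submitters deposited them. Samples held 7526676 to 8859862 reads over the listed genes. Within each group, samples 1 to 4 differed from each other by no more than the counting of reads allows, and so did samples 5 to 8, so each set of 4 was averaged and counted as 1 library, called A and B, giving n = 2 a group. Wnt5a itself, the introduced gene, had a value of 122 ± 31.4 (SD, n = 2) in empty cells and 1279 ± 325 in Wnt5a cells, 7.27-fold higher between the A libraries and 15.1-fold between the B libraries. Of 12357 genes with a mean value of at least 10, limma called 254 (2.06%), taking an adjusted p under 0.05 as a call. Wnt5a cells had the higher value for 171 of these (1.38%) and the lower for 83 (0.672%). edgeR called 1.99% of the genes and DESeq2 4.35%. Neuroendocrine markers were abundant, as with synaptophysin (Syp), at 1718 and 1525 in the empty libraries and 1571 and 1409 in the Wnt5a libraries (limma adjusted p = 0.623). Chga had 4043 ± 462 in empty cells and 3403 ± 561 in Wnt5a cells (limma adjusted p = 0.428), with overlapping samples. Rb1, labelled null, had 3223 ± 8.73 and 3193 ± 34.0 (adjusted p = 0.957), far above the median gene tested (337), so its level goes against the label unless the reads lie outside the deleted part, which a value per gene cannot show. Trp53, also labelled null, had 67.4 ± 3.71 and 90.9 ± 9.04 (adjusted p = 0.187), and Rbl2 had 321 ± 4.56 and 351 ± 25.6 (adjusted p = 0.586).

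The results below turn on Dpp10 and Kcnip4, and the bases before their RefSeq starts are shown so that their letters can be compared. RefSeq promoter windows on GRCm38.p6 were matched by symbol for 8 of the 9 genes, in 15 windows, and the 250 bases before the start are printed 5′ to 3′ on the gene's strand. Dpp10 has 1 window, on the minus strand at chr1:124045560-124045809, where GENCODE M21 annotates no transcript. Kcnip4 has 2, both on the minus strand: start 1 at chr5:49285660-49285909, in an intron of longer Kcnip4 transcripts, and start 2 at chr5:48599683-48599932, also in an intron of Kcnip4 and within an exon of the antisense non-coding gene Gm20700. Capitals mark every match, on either strand, to CANNTG (the E-box core bound by basic helix-loop-helix factors), GGGCGG (the GC box) and ATCAAAG (letters bound by TCF/LEF factors of the Wnt pathway); none of the marked matches is shared by 2 motifs.
Dpp10: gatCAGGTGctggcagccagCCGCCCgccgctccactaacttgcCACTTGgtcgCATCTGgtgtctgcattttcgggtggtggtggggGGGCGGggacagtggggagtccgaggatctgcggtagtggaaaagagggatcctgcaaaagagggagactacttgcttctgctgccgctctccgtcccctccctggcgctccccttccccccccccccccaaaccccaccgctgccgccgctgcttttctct
Kcnip4 start 1: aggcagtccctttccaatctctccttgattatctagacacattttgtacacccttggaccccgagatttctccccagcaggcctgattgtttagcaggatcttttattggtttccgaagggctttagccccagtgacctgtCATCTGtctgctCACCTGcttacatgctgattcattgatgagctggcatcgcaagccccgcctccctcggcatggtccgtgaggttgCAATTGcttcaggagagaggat
Kcnip4 start 2: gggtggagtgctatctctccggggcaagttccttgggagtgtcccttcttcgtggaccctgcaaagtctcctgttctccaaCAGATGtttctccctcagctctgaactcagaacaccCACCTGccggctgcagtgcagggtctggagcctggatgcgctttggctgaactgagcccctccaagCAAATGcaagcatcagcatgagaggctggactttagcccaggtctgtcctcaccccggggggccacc

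The Dpp10 window is 65.2% G or C, with 3 matches to CANNTG and 2 to GGGCGG. Both Kcnip4 windows hold 3 matches to CANNTG and none to GGGCGG, at 51.2% and 59.2% G or C. ATCAAAG is in 0 of the 15 windows. Among 32851 RefSeq promoter windows of the same length, 66.2% hold CANNTG, 32.7% hold GGGCGG and 3.21% hold ATCAAAG, and the median is 52.4% G or C. A match is a run of letters only, and which start the cells use was not measured.

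Dpp10 had lower values in Wnt5a cells, and so had its companion Dpp6, whose difference did not pass the test. In empty cells the 8 samples of Dpp10 ran from 476 to 886 with a median of 665, and in Wnt5a cells from 249 to 289 with a median of 273. Every Wnt5a sample lay below every empty sample. The empty samples formed separate clusters by library: library A averaged 497 and library B 846, while the Wnt5a libraries averaged 266 and 272. The group means were 672 ± 247 (SD, n = 2) and 269 ± 4.34, so that Wnt5a cells held 40.1% of the empty level, a log2 difference of -1.27 on the scale of log2(value + 1). The A libraries differed by 1.87-fold (95% counting interval 1.73 to 2.01) and the B libraries by 3.11-fold (2.91 to 3.33). The size differed between the library pairs: the log2 difference was -0.90 for A and -1.63 for B, and whether the 2 sizes differ beyond the spread of libraries was not tested, since 4 libraries leave no residual degree of freedom for it. Such intervals cover the counting of reads only, and reads without molecular identifiers are not independent molecules. In a bulk sample, fewer cells that express a gene and less RNA per cell cannot be told apart.

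Dpp10 stood second, after the adhesion gene Chl1 (-2.69), among the 34 genes that limma called lower, that lay at or above the median value of the genes tested and whose samples did not overlap. With the first 5 taken as the large differences, Cartpt was the last inside at -0.99 and Brinp2 the first outside at -0.92. These values chose the gene and are not evidence about it, and the call used for that ranking was lost under 4 of 16 alternative settings.

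**Figure D1:**
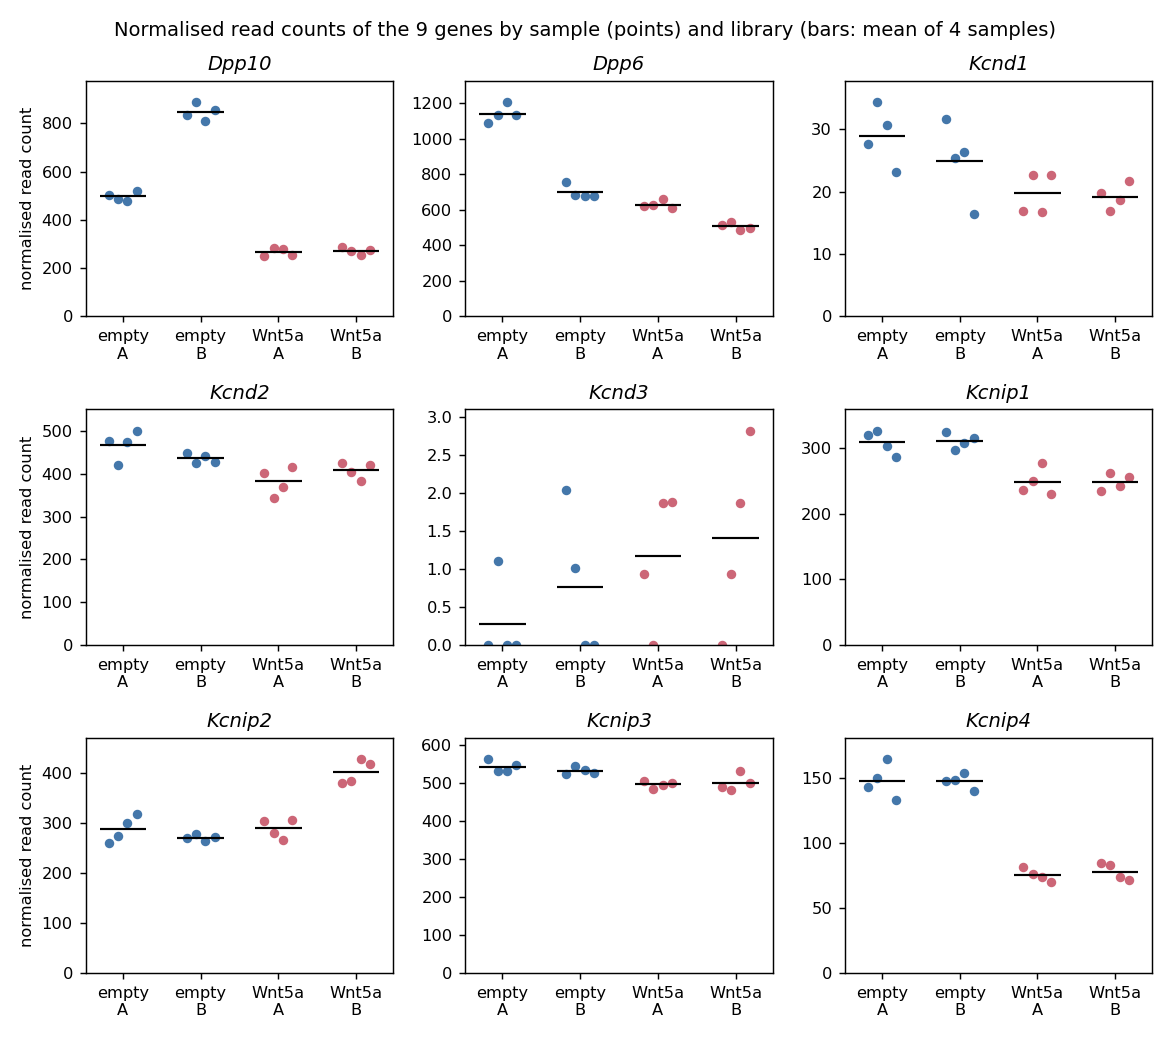
Normalised read count of each of the 9 genes (vertical axis, linear and from 0) in the 16 samples, as points grouped by library (empty A and B, Wnt5a A and B), with a bar at the mean of each library's 4 samples. Dpp10, Dpp6, Kcnip1 and Kcnip4 have every Wnt5a sample below every empty sample, and for Dpp10 the empty B samples (mean 846) lie well above the empty A samples (mean 497).

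Dpp6, the closest relative of Dpp10 and the main such subunit of Kv4 channels in brain, ran from 679 to 1205 in empty samples (median 923) and from 487 to 663 in Wnt5a samples (median 571). The samples did not overlap, yet the empty libraries were again far apart, at 1141 for A and 701 for B, against 630 and 508 in Wnt5a cells. Group means were 921 ± 311 and 569 ± 86.1 (SD, n = 2). The log2 difference of -0.66 (SE 0.22) did not pass limma's test (adjusted p = 0.206). Without the empty B library it was -1.01, and without the empty A library -0.31. Each of these fits leaves 1 empty library, so the gap between the empty libraries is not part of its spread. Dpp10 had -0.88 without empty B and -1.65 without empty A, and which of the 2 genes differed more was not tested.

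The 2 genes differed between the empty libraries in opposite directions. Dpp10 was 1.70-fold higher in empty B than in empty A (95% counting interval 1.61 to 1.81), and Dpp6 was 1.63-fold higher in A than in B (1.55 to 1.71). In Wnt5a cells the same ratios were 1.02 for Dpp10 (0.94 to 1.11) and 1.24 for Dpp6 (1.17 to 1.31). Of 12357 genes, 76 had a larger positive difference from empty A to empty B than Dpp10 (log2 0.77) and 119 a larger negative difference than Dpp6 (log2 -0.70), so both were near the ends of that distribution. The empty B value of Dpp10 also enters the group difference for which Dpp10 was chosen, so its place there is not independent of that choice. In a fit of all 4 libraries with group as a term, samples 5 to 8 against samples 1 to 4 gave 916 called genes (7.41%) by limma, 505 of them lower in samples 5 to 8 (4.09%), and Dpp6 was the only member among them, at a log2 difference of -0.51 (SE 0.09, adjusted p = 0.0276). That call was lost without the filter on low values (limma adjusted p = 0.132) and without the mean trend (0.194). In both settings limma called no gene at all, with 3512 of 17655 and 2680 of 12357 genes at an unadjusted p under 0.05. With the filter kept, edgeR called 968 genes. Dpp10 had 0.40 (SE 0.15, adjusted p = 0.136) in the limma fit with filter and trend. The other 6 members tested lay between -0.12 (Kcnd1) and 0.19 (Kcnip2), with limma adjusted p of 0.340 (Kcnip2) or more.

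**Figure D2:**
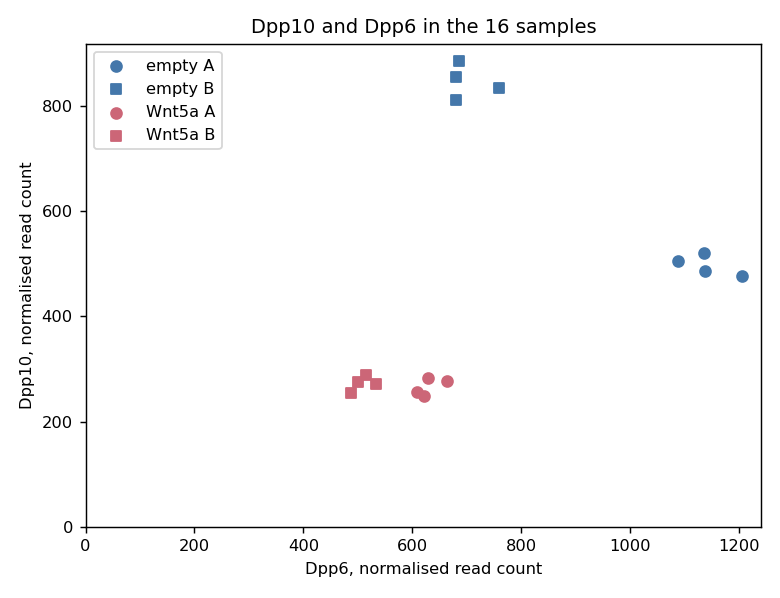
Dpp10 (vertical axis) against Dpp6 (horizontal axis), both as normalised read counts from 0, in the 16 samples, with circles for library A and squares for library B. The empty samples form separate clusters, high in Dpp6 for A and high in Dpp10 for B, and all Wnt5a samples lie below both clusters in Dpp10 and at 663 or less in Dpp6.

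Among the pore genes, Kcnd2 (Kv4.2) was the abundant member, and neither it nor Kcnd1 passed the test. Kcnd2 ran from 419 to 500 in empty samples (median 445) and from 343 to 424 in Wnt5a samples (median 403), and the samples overlapped. Group means were 452 ± 22.0 and 395 ± 18.3 (SD, n = 2), a log2 difference of -0.19 (SE 0.09, limma adjusted p = 0.340). Kcnd1 (Kv4.1) was low, from 16.4 to 34.3 in empty samples and from 16.8 to 22.6 in Wnt5a samples, with 82 to 105 reads a library. Its means were 27.0 ± 2.83 and 19.5 ± 0.36, a difference of -0.45 (SE 0.19, limma adjusted p = 0.312). Kcnd3 (Kv4.3), a main pore gene of the heart's transient outward current, was close to absent, with 1 and 3 reads in the empty libraries and 5 and 6 in the Wnt5a libraries. It was too low to test, and no fold is given for counts this small.

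The KChIP genes did not behave alike: Kcnip4 fell, Kcnip1 had lower values that missed the test, Kcnip3 lay close between the groups and Kcnip2 was higher in a single library. Kcnip4, which has a splice form known to suppress fast inactivation, ran from 134 to 165 in empty samples (median 148) and from 70.6 to 84.6 in Wnt5a samples (median 75.1). The libraries of a group agreed closely, at 148.1 and 147.7 for empty and 75.6 and 78.3 for Wnt5a cells, and no samples overlapped. Means were 148 ± 0.27 and 77.0 ± 1.90 (SD, n = 2), a log2 difference of -0.93 (SE 0.11, limma adjusted p = 0.0103). Kcnip4 was 1.96-fold higher in empty A than in Wnt5a A (95% counting interval 1.70 to 2.26) and 1.89-fold between the B libraries (1.65 to 2.16). It passed the test under all 16 alternative settings that were run, with differences from -0.96 to -0.86 and a highest adjusted p of 0.0418, reached without the filter on low values.

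Kcnip1 (KChIP1) ran from 287 to 326 in empty samples (median 312) and from 231 to 277 in Wnt5a samples (median 246), without overlap. Its libraries were nearly equal within each group, at 309 and 312 against 248 and 249, and the log2 difference of -0.32 (SE 0.08) had a limma adjusted p of 0.128. Kcnip3, also known as calsenilin or DREAM and described as a transcriptional repressor too, had 537 ± 7.61 in empty and 499 ± 3.35 in Wnt5a cells, a difference of -0.11 (SE 0.07, adjusted p = 0.580), with overlapping samples. Kcnip2 (KChIP2), the KChIP of heart muscle, had 289 and 272 in the empty libraries and 290 in Wnt5a A, but 402 in Wnt5a B. That single library stood 1.39-fold above Wnt5a A (95% counting interval 1.29 to 1.49) and 1.48-fold above empty B (1.37 to 1.60), while the A libraries had a ratio of 1.00 (0.92 to 1.09). The fitted difference of 0.28 (SE 0.15, limma adjusted p = 0.446) was not called.

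**Figure D3:**
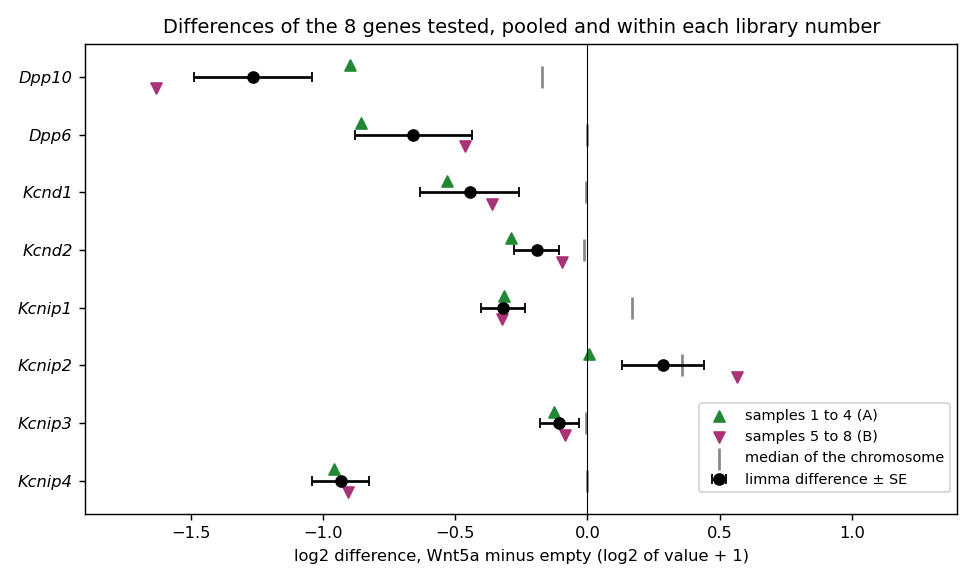
Log2 difference, Wnt5a minus empty, of the 8 genes tested (horizontal axis, log2 of value + 1), as limma's estimate ± SE (black points), within library A and library B (triangles), with a grey tick at the median of all tested genes on the gene's chromosome. Kcnip4 has its triangles at -0.96 and -0.91, close together, whereas those of Dpp10 lie at -0.90 and -1.63.

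Of the 7 partners of Dpp10 that could be tested, limma called 1 (Kcnip4, lower), where 2.06% of all genes were called. At an unadjusted p under 0.05 there were 3, namely Dpp6, Kcnip1 and Kcnip4, where 16.1% of all genes tested passed that mark. Fitted differences were below 0 for 6 partners and above 0 for 1 (Kcnip2), with a median of -0.32, where 49.3% of all genes tested lay below 0 and the median was 0.00. All 8 Wnt5a samples lay below all 8 empty samples for 3 partners, Dpp6, Kcnip1 and Kcnip4, and for 5.95% of all genes. The opposite held for 0 partners and for 6.45% of all genes. With 2 libraries a group, an exact permutation test of a single gene cannot give a p under 0.333, so the calls rest on limma's pooling of the spread over genes.

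Within a library the repeated samples added little error. For the 8 genes tested, the ratio of the variance between a library's 4 samples to that expected from counting had a median of 0.864 over 32 values, and 1 of them (Kcnd2 in Wnt5a A, at 2.88) passed a chi-square p of 0.05.

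Levels of different genes were compared per kb of the longest GENCODE M21 coding transcript. In empty cells the order of the value per kb was Kcnip3 (197 ± 2.79, SD, n = 2), Dpp6 (195 ± 65.9), Kcnip1 (134 ± 0.78), Kcnip2 (117 ± 5.17), Kcnd2 (87.6 ± 4.27), Kcnip4 (61.8 ± 0.11), Dpp10 (43.9 ± 16.2), Kcnd1 (5.10 ± 0.54) and Kcnd3 near 0. Kcnip3 and Dpp6 could not be placed in order, since the libraries of Dpp6 (241.7 and 148.5 per kb) lie on either side of Kcnip3, and the gap from Dpp6 to Kcnip1 was smaller than the SD of Dpp6. In Wnt5a cells the order per kb was Kcnip3 (183 ± 1.22), Kcnip2 (144 ± 33.2), Dpp6 (121 ± 18.2), Kcnip1 (107 ± 0.17), Kcnd2 (76.7 ± 3.55), Kcnip4 (32.1 ± 0.79), Dpp10 (17.6 ± 0.28) and Kcnd1 (3.68 ± 0.07). Kcnip2 and Dpp6 overlapped there, and Dpp6 differed from Kcnip1 by less than its SD. The place of Dpp10 depends on which transcript is present: its annotated coding transcripts run from 4.48 to 15.3 kb, and on the shortest it would stand at 150 per kb in empty cells, above Kcnd2 and Kcnip4. Kcnip2, with annotated transcripts from 0.375 kb, would then head the order.

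Summed per kb by role, the 4 KChIP genes made the largest sum, at 514 and 504 in empty A and B and 441 and 491 in Wnt5a A and B. The 3 pore genes summed to 96.2 and 89.4 against 78.1 and 83.0 per kb, of which Kcnd2 made 94.3% to 95.4%. Dpp6 and Dpp10 together summed to 274 and 204 in empty cells and 151 and 126 in Wnt5a cells. Within that pair the share of Dpp10 was 11.8% and 27.1% in the empty libraries and 11.5% and 14.2% in the Wnt5a libraries, so the empty B library alone stood apart in its mixture. On the shortest transcripts the shares were 27.1%, 50.8%, 26.5% and 31.4%, in the same order of libraries. Among the KChIPs, Kcnip4 made 12.0% and 12.2% of the per-kb sum in empty cells and 7.16% and 6.66% in Wnt5a cells, and Kcnip2 made 23.5% and 22.5% against 27.4% and 34.2%.

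The neighbours of Dpp10 and Kcnip4 on their chromosomes had smaller differences than these genes. That was likely beforehand, since Dpp10 was chosen for its large difference and Kcnip4 was taken as the partner that was called. Chromosome 1, which holds Dpp10, had a median log2 difference of -0.17 over its 689 tested genes, and Dpp10 had a difference from that median of -1.09. Around Dpp10 the nearest 5 tested genes on each side in RefSeq order were Dbi, 3110009E18Rik, Insig2, Ccdc93 and Ddx18, and Actr3, Slc35f5, Mgat5, Tmem163 and Ccnt2. All 10 had fitted differences below 0, from -0.39 (Tmem163, limma adjusted p = 0.0522) to -0.03 (Ccdc93), with a median of -0.15. Limma called none of them (3 at an unadjusted p under 0.05, against 16.1% of all genes), edgeR called none and DESeq2 called 1.

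Kcnip4 lies on chromosome 5, as does Dpp6, where the median of 775 genes was 0.00. Of the 10 tested neighbours of Kcnip4, 5 were below 0 and 5 above, from -0.49 (Ppargc1a, a transcriptional coactivator of mitochondrial genes) to 0.50 (Adgra3, an adhesion G protein-coupled receptor, limma adjusted p = 0.0554). Limma called none (2 at an unadjusted p under 0.05, against the same 16.1%), edgeR none and DESeq2 1. Medians were positive on chromosome 11 (0.17), with Kcnip1, and on chromosome 19 (0.36), with Kcnip2. Relative to these medians, Kcnip1 had a difference of -0.49 and Kcnip2 of -0.07, so the sign of Kcnip2 depends on that reference. Limma called Kcnip1 when the medians, taken from the same libraries, were subtracted from every gene (adjusted p = 0.048). In that setting 207 genes were called, and Kcnip2 had an adjusted p of 0.917. Without the subtraction Kcnip1 had -0.32 (limma adjusted p = 0.128).

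**Figure D4:**
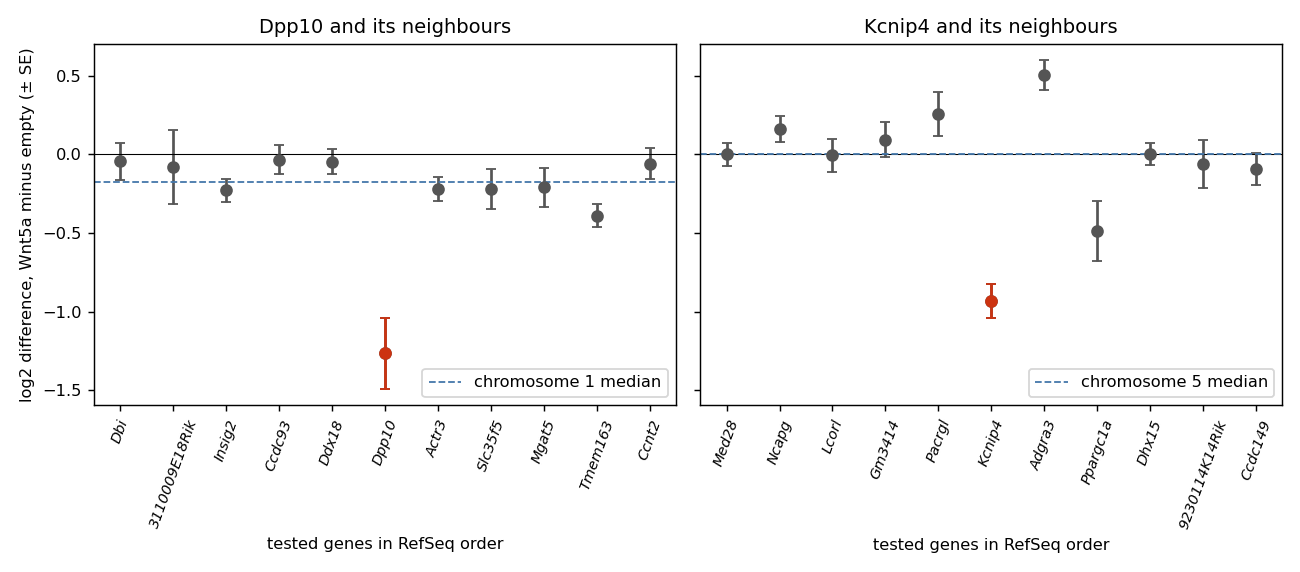
Log2 difference, Wnt5a minus empty, with limma's SE as error bars (vertical axis), for Dpp10 (left) and Kcnip4 (right) in red and the 5 nearest tested genes on each side in grey, in RefSeq order (horizontal axis), with the chromosome median dashed. Dpp10 lies at -1.27 where its neighbours lie between -0.39 and -0.03, and Kcnip4 at -0.93 where its neighbours lie between -0.49 and 0.50.

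In the fit of all 4 libraries, the 3 members with the largest negative differences were those with the longest genes. RefSeq genes on GRCm38.p6 span 1514 kb for Dpp10, 1136 kb for Kcnip4, 910 kb for Dpp6, 514 kb for Kcnd2 and 364 kb for Kcnip1, and 65.6, 24.1 and 14.5 kb for Kcnip3, Kcnip2 and Kcnd1. Dpp10 is longer than 99.9% of the genes tested. Over the 8 members the Spearman correlation of span with the log2 difference was -0.74, and without Dpp10 it was -0.61 over 7. Those are descriptions of genes that share the same 4 libraries. The value with Dpp10 in it also depends in part on the choice of Dpp10 for its difference. Over 12340 genes with a span the same correlation was -0.20. The median log2 difference of all genes went from 0.04 below 10 kb to -0.12 for the 148 genes of at least 500 kb. Of these 148, which include Dpp10, Kcnip4, Dpp6 and Kcnd2, 69.6% lay below 0, against 49.3% of all genes. Limma called 8 of the 148 higher and 4 lower (8.11% called, against 2.06% of all genes). The share called lower was 2.70%, against 0.672% of all genes, and Dpp10 and Kcnip4 are among those 4. Dpp10 was chosen with that same call, so this share is not evidence about it. The part of gene span in the differences of Dpp10, Kcnip4 and Dpp6 was not tested.

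**Figure D5:**
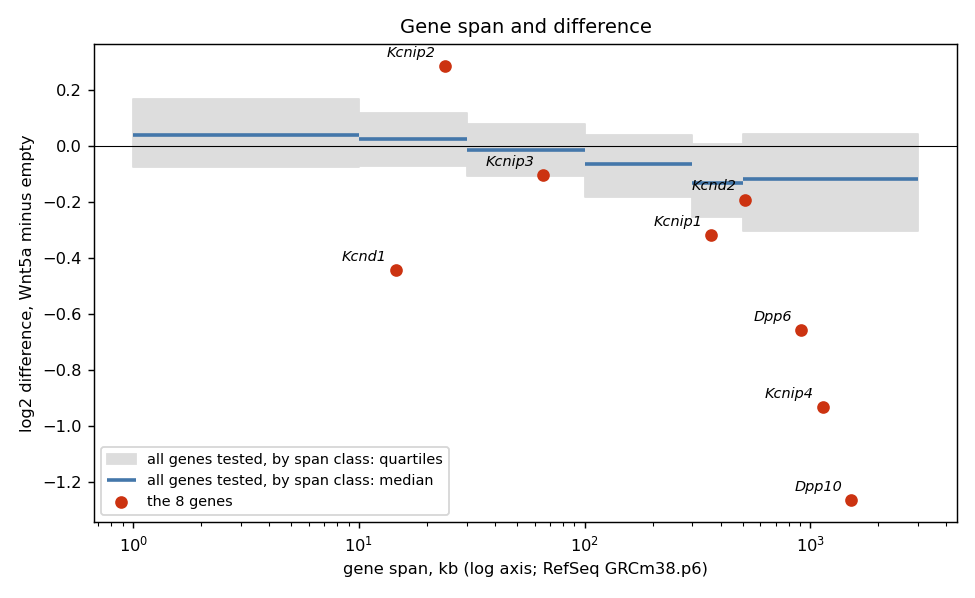
Log2 difference, Wnt5a minus empty (vertical axis), against gene span in kb (horizontal log axis; RefSeq, GRCm38.p6) for the 8 genes tested (red points), with the median (blue line) and quartiles (grey band) of all genes tested in each of 6 span classes. Dpp10, Kcnip4 and Dpp6 lie below the grey band of the longest class, whose lower quartile is -0.31, and Kcnd1 lies far below the band of its own class.

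Brinp2, Egfl6, Necab1, Inhbb and Wipf1 had the profiles most like that of Dpp10, measured as the root mean square distance between log2 values over the 4 libraries after each gene was centred on its own mean, among 6178 genes at or above the median value. This distance includes the group difference for which Dpp10 was chosen, so it favours other genes with large negative differences. Limma called all 5 lower, and Inhbb, Egfl6 and Brinp2 held ranks 3, 4 and 6 in the ranking that chose Dpp10. Brinp2, a gene of neural cells on chromosome 1, was nearest at 0.24, with 399 and 506 in the empty libraries and 216 and 261 in the Wnt5a libraries. Egfl6, a secreted EGF-repeat protein (X chromosome), was at 0.28, and Necab1, a neuronal calcium-binding protein (chromosome 4), at 0.36. Inhbb, the activin B subunit (chromosome 1), was at 0.36, with 739 and 622 against 302 and 277, and Wipf1, an actin regulator (chromosome 2), at 0.40. Only Brinp2 among these 5 had a clearly higher empty B than empty A library, as Dpp10 had, and with a smaller gap. Of the members only Dpp6, Kcnd2 and Kcnip3 were high enough to be compared, and none was among the 5.

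Other genes of the channel's surroundings, in 4 lists with 41 listed genes, gave no call. Limma tested 30 of them and called 0 (5 at an unadjusted p under 0.05, a mark that 16.1% of all genes tested passed), edgeR called 0 and DESeq2 called 0, where 2.06% of all genes were called by limma. In the family of prolyl oligopeptidases, the enzymes to which Dpp6 and Dpp10 are related, 6 of 7 were tested, with a median log2 difference of -0.07. Apeh, which removes acylated amino acids, had the smallest p, with 213 ± 20.3 in empty and 274 ± 19.2 in Wnt5a cells (0.36, SE 0.11, limma adjusted p = 0.165), followed by Prepl (-0.16, adjusted p = 0.550). Neuronal calcium sensors and calmodulins, the EF-hand relatives of the KChIPs, had 7 tested of 11 with a median of 0.02, where Calm2 (-0.07, adjusted p = 0.765) and Ncs1 (-0.06, adjusted p = 0.817) had the smallest p.

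Among 18 further modulators, scaffolds and kinases of Kv4 channels, 15 were tested, 10 below 0 and 5 above, with a median of -0.05. Kcnab3, a cytoplasmic beta subunit of potassium channels, had 94.2 ± 1.06 and 122 ± 6.79 (0.36, SE 0.11, limma adjusted p = 0.179), and Dlg2, a synaptic scaffold, had 27.4 ± 0.62 and 16.9 ± 3.67 (-0.68, SE 0.22, adjusted p = 0.187). Among other channel genes able to give an A-type current, Kcnc4 (Kv3.4) was low, at 12.4 and 5.85 in the empty libraries and 26.8 and 19.0 in the Wnt5a libraries (1.30, SE 0.36, limma adjusted p = 0.144). Kcna4 (Kv1.4) and Kcna2, named here after their values were seen, were under the minimum and went opposite ways. Kcna4 had 51 and 28 reads in the empty libraries against 12 and 11 in the Wnt5a libraries. Kcna2 had 2 and 5 against 15 and 11.

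Markers of other cells that use these genes were set beside the results. For heart muscle, a tissue where Kcnip2 and Kcnd3 are abundant, the 4 markers summed to 157 and 181 in empty and 126 and 107 in Wnt5a libraries, nearly all of it Myh7 and Myh6, and Tnnt2 was at or near 0 in every library. For neurons, limma called 1 of 6 tested markers (7 listed), where 2.06% of all genes were called. It was Slc17a6, a vesicular glutamate transporter, with 145 and 149 in empty and 53.6 and 67.3 in Wnt5a libraries (-1.28, adjusted p = 0.00899). The other 5 neuronal markers tested were also below 0, where 49.3% of all genes tested were, with limma adjusted p of 0.102 (Map2) or more. Rbfox3, the defining nuclear marker of mature neurons, was near 0 at 5.35 or less in every library. The summed neuronal level was 9386 and 8633 in empty and 7606 and 7251 in Wnt5a cells, and most of it came from Map2, Snap25, Syt1 and Tubb3, which neuroendocrine cells also express. Its part in the values of Dpp10 and Kcnip4 was not tested.

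For fibroblasts, the 4 listed markers summed to 604 and 353 in empty and 244 and 248 in Wnt5a libraries, nearly all of it Dcn (597, 340, 241 and 246; log2 difference -0.89, limma adjusted p = 0.131). The order of Dcn over the empty libraries, higher in A, was that of Dpp6. Col1a1 (2.21 in empty A and 3.56 in empty B) and Pdgfra (4.69 and 9.41) had the order of Dpp10, at values too low to test. With 2 empty libraries a gene can only be higher in A or in B, so a shared order carries little information. The defining collagen genes Col1a1 and Col1a2 stayed at 3.56 or less, and Pdgfra at 9.41 or less. Leukocyte markers summed to at most 15.3, endothelial markers to at most 5.79 and lung epithelial markers to at most 47.9 in any library. The part of these markers in the results was not tested.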

How the data were processed

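Messenger RNA was selected with oligo-dT from 500 ng of total RNA in 8 empty and 8 Wnt5a samples, per the labels' protocols. The deposited signal values were reads divided by a single factor per sample, as 100% of the values are whole multiples of a step of 0.934 to 1.11 (tolerance 0.01 of a step). TopHat, Bowtie, HTSeq and DESeq2 are named in the submitters' processing notes with no version, and the genome build is not given in the sources used here. Whether the counting used strand is not stated either. Annotated genes that overlap a member and are listed in the files are Speer4b (Dpp6), Kcnmb1 (Kcnip1) and 5730480H06Rik (Kcnip4), so reads there could be divided or lost.

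Samples 1 to 4 and samples 5 to 8 of a group were averaged as 2 libraries, since the dispersion index of every pair within such a set was under 1.5. Libraries held 30220749 to 35315408 reads. limma 3.58.1 (R 4.3.3, with a mean trend) was fitted to log2(value + 1) over 12357 genes with a mean value of at least 10, with Benjamini-Hochberg adjustment and a threshold of 0.05. A fold change on this scale understates that of low genes. A second limma fit compared B with A libraries, with group as a term, on 1 residual degree of freedom. Alternatives were the pseudocount, the filter, centring, quantile normalization, no trend, 16 separate samples, a replicate block, leaving out each library, subtracted chromosome medians, edgeR 4.0.16 and DESeq2 1.42.0 on the recovered reads. Scripts were tested on simulated data.

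The genes named are the 9 members, from each list those called or else the 2 with the smallest p (a gene under this rule is not reported here), 5 neighbours on each side of Dpp10, the 5 nearest profiles, and the genes in the labels. The neighbours of Kcnip4, the marker genes and the promoter motifs were added for comparison. Members and lists were chosen with earlier results of these data known. Counting intervals are 95% intervals from the recovered reads. A comparison of protein sequences was not made.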

Additional observations from a re-analysis of the deposited data

Results flagged for a closer look

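Of 16 groups of samples checked (8 genes in 2 groups of 8), 1 held a sample far from the others: a Wnt5a sample of library B had 532 normalised counts of Kcnip3, where the other 7 Wnt5a samples lay between 483 and 506. Chance marks about 1 in 20 such groups, and the 8 samples are repeated measures of 2 libraries.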

How the results depend on the processing

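With 254 genes called by limma, the count was 146 without the filter, 102 with a minimum of 50, 158 without the trend, 538 with DESeq2, 4377 with the 16 samples taken as separate and 138 to 1098 when 1 library was left out. Of the 7 partners tested, 1 was called, against 2 with chromosome medians subtracted (Kcnip1 joined Kcnip4), where 207 genes were called. All 7 were called with 16 separate samples, where 4377 of 12357 genes were. That setting counts repeated measures of a library as replicates. The direction of Kcnip2 turned to -0.0725 with chromosome medians subtracted, the shift of chromosome 19 being taken off by construction. The log2 difference of Dpp10 stayed negative under all alternatives, from -1.32 to -1.09, and from -1.65 (without empty A) to -0.88 (without empty B) when 1 library was left out. The call by which Dpp10 was ranked was lost without the filter (adjusted p = 0.153), with a minimum of 50 (0.0727), without the trend (0.114) and with chromosome medians subtracted (0.0856). Fits that leave 1 library in a group assume that it varies like the other group. The comparison of B with A libraries called 916 genes, but 0 without the filter and 0 without the trend; the cause was not tested. Library numbers are shared between the groups, but the labels do not say that they pair the samples. The deviations of the A libraries from their group means correlated at Pearson 0.44 and Spearman 0.53 across 12357 genes, which are not independent replicates. With the replicate block, 2095 genes (17.0%) and 3 partners were called, namely Dpp6 (adjusted p = 0.00495), Kcnip1 (0.0152) and Kcnip4 (0.00135), and 4 of the 10 neighbours of Dpp10, 1 of those of Kcnip4 and 4 genes of the 4 lists. With 82 to 105 reads a library for Kcnd1 and at most 6 for Kcnd3, depth limits what can be said of these genes.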
